A study of Dicosmoecus gilvipes with 20 samples.

Results

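A circadian clock-controlled protein transcript of the caddisfly *Dicosmoecus gilvipes* was followed in larvae held at 15.5, 20, 25 or 28.6°C. The transcript is the contig comp57418_c0_seq3, and all contigs whose identifier begins with comp57418_c0_seq were taken with it, because they were assembled from 1 set of overlapping reads. There were 3 such contigs among the 135858 of the assembly. They were described contig by contig and as a sum, in 20 RNA-seq libraries of thorax tissue, with 5 libraries at each temperature. All groups were wild larvae of the terminal instar from 1 river, kept together at a cooler temperature, brought over several days to 1 of the 4 temperatures and held there for 1 day before freezing. The 5 libraries of a temperature were made from pooled RNA of the same larvae, so the spread among them measures the preparation and counting of libraries and not the spread among animals. Neither the light cycle nor the hour of freezing is given in the sources used here.

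The best protein match of comp57418_c0_seq3 is the *Drosophila melanogaster* protein O76879, which carries the name circadian clock-controlled protein and is also known as daywake. It belongs to the takeout family, small secreted insect proteins with a pocket for greasy ligands, related to the carriers of juvenile hormone in the blood of moths. In *Drosophila* the transcript of takeout itself rises and falls with the time of day under control of the clock and has been tied to feeding and starvation. The clock genes proper, such as period and timeless, are a different set of genes, and a protein of this family is an output of the clock at most.

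The name rests on distant similarity. Contig comp57418_c0_seq3 is 1140 bases long, and its match to O76879 has 24.3% identical residues (E value 4e-17). The other contigs, comp57418_c0_seq1 of 902 bases and comp57418_c0_seq2 of 972 bases, best match Protein takeout (Q9VBV3) with 26.5% identity each. On both of these the match lies at bases 152 to 823 of the contig and residues 18 to 245 of the protein, while on comp57418_c0_seq3 the match lies at bases 200 to 991 and residues 13 to 257 of O76879. The 3 contigs therefore carry 2 protein names although they were assembled together, and the label clock-controlled holds for comp57418_c0_seq3 alone.

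The contigs also differ in how surely reads were theirs. An estimated count is the number of reads given to a contig after reads that map to several contigs are divided by probability, and a unique count takes only reads that map to that contig. Over all libraries comp57418_c0_seq3 had 6983 estimated counts, of which the 5666 unique counts make 81.1%. Contig comp57418_c0_seq1 had 2950 estimated counts and 105 unique counts, a share of 3.56%. Contig comp57418_c0_seq2 had 289.8 estimated counts and 22 unique counts. The values of comp57418_c0_seq3 thus rest mainly on reads of its own, while those of comp57418_c0_seq1 and comp57418_c0_seq2 rest on how shared reads were divided.

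Depth lay between 6756103 and 14236152 estimated counts per library. Before scaling, the 10 contigs of comp65386_c0, which were taken to be ribosomal RNA without a check of their sequence, were left out. They took 45.0% and 77.0% of the counts in 20°C replicates 1 and 4. In the other 18 libraries they took between 0.490% and 15.1%, and the 28.6°C libraries held the highest shares, 4.91% to 15.1%. In its display of target genes the study left out some 20°C samples for divergent patterns, and the legend does not name them. Every library was kept here. In a fit without 20°C replicates 1 and 4, no fold change of comp57418_c0_seq3 or the sum moved by more than the spread within temperatures. Levels are given as CPM, counts relative to the TMM-scaled remaining total of a library, with means ± SD over 5 libraries. Of all contigs 30413 were retained, and the 3 contigs of comp57418_c0 were among them. The study took comp57418_c0_seq3 as a target, and listed all 3 contigs as differentially expressed, on these same libraries. They were thus chosen on the differences between temperatures that are given here, and their levels and fold changes are a description, given with their errors and with no p. Where they enter a count of contigs past a threshold, nothing is read from that count.

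The clock-controlled contig was highest in the coolest larvae, lower and about level at 20 and 25°C, and lowest at 28.6°C. At 15.5°C comp57418_c0_seq3 had 80.6, 70.1, 72.5, 67.2 and 63.4 CPM in replicates 1 to 5. At 20°C it had 47.2, 46.7, 47.3, 30.9 and 41.8 CPM. At 25°C it had 48.3, 36.5, 40.4, 40.3 and 41.0 CPM. The values at 20 and 25°C overlapped, and all 10 lay below the lowest library at 15.5°C. At 28.6°C it had 9.68, 8.18, 5.46, 5.88 and 3.87 CPM, and the highest of these was under the lowest at any other temperature. The means were 70.8 ± 6.45, 42.8 ± 7.04, 41.3 ± 4.28 and 6.62 ± 2.30 CPM at 15.5, 20, 25 and 28.6°C (SD, n = 5 libraries each). The order of 20 and 25°C was within the spread between their libraries.

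The same steps stood in the sum of the 3 contigs, which does not depend on how reads were divided among them. The sum was 109.1, 99.0, 97.9, 95.9 and 97.5 CPM at 15.5°C. It was 69.9, 68.2, 70.3, 58.7 and 61.4 CPM at 20°C and 64.6, 56.6, 61.1, 55.4 and 61.3 CPM at 25°C. At 28.6°C it was 15.2, 10.7, 10.8, 11.0 and 8.60 CPM. As for the single contig, the 15.5°C libraries lay above all others, the 28.6°C libraries lay below all others, and the libraries of 20 and 25°C overlapped. The mean sums were 99.9 ± 5.28, 65.7 ± 5.33, 59.8 ± 3.76 and 11.3 ± 2.43 CPM from the coolest to the warmest group (SD, n = 5 each).

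**Figure D1:**
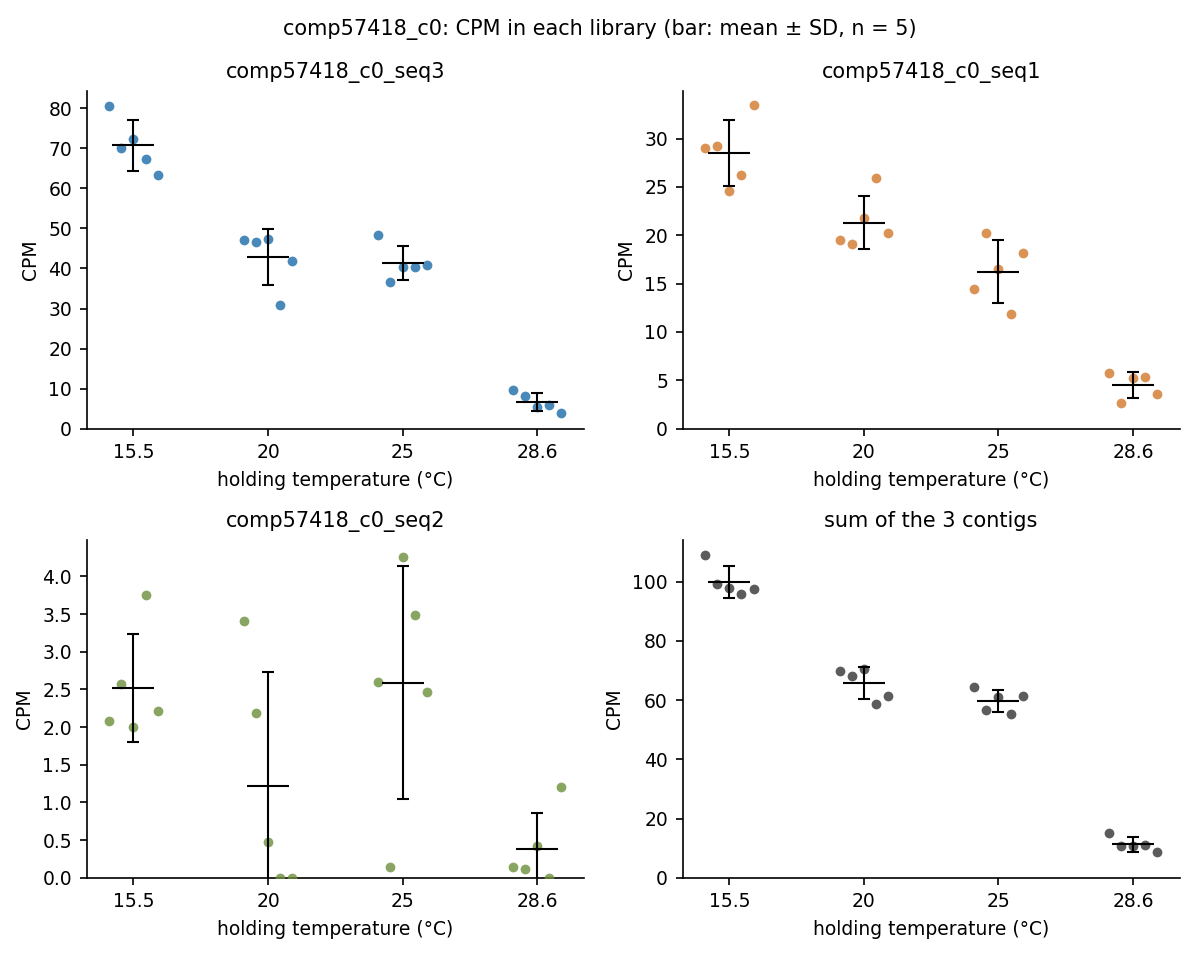
CPM in each of the 20 libraries (points, replicates 1 to 5 from left to right) against the holding temperature in °C, for comp57418_c0_seq3, comp57418_c0_seq1, comp57418_c0_seq2 and their sum. Bars give the mean ± SD of 5 libraries, cut at 0 where they would pass below it. The points of comp57418_c0_seq3 at 28.6°C lie between 3.87 and 9.68 CPM, below every library of the other temperatures.

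Fold changes were taken from 1 edgeR quasi-likelihood fit over all retained contigs, and a contig met both criteria where its adjusted p (Benjamini-Hochberg) was below 0.05 and its fold change was at least 4 or at most 0.25. At 28.6°C against 15.5°C, comp57418_c0_seq3 had a log2 fold change of -3.38 (SE 0.182), a level 10.4-fold lower at 28.6°C. The step of 28.6°C against 25°C was -2.60 (SE 0.178), that of 25°C against 20°C was -0.06 (SE 0.163) and that of 20°C against 15.5°C was -0.71 (SE 0.163). Most of the difference between the coolest and the warmest larvae thus lay in the last and shortest step of 3.6°C, at -0.72 per °C on the log2 scale. Over the 4.5°C between 20 and 15.5°C the difference was -0.16 per °C. Among the retained contigs, 302 had a lower log2 fold change at 28.6°C against 15.5°C than comp57418_c0_seq3 (0.993%).

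Contig comp57418_c0_seq3 was more than 4-fold lower in each of the 3 comparisons with 28.6°C and in none of the other 3. For scale, the share of all retained contigs that were lower and met both criteria was 4.77% at 28.6°C against 15.5°C, 4.84% at 28.6°C against 20°C and 2.16% at 28.6°C against 25°C. It was 2.29% at 25°C against 15.5°C, 1.73% at 25°C against 20°C and 1.39% at 20°C against 15.5°C. The libraries of comp57418_c0_seq3 did not overlap in 5 comparisons, all but 25°C against 20°C. The share of retained contigs that were lower with no overlap was 18.7%, 14.0% and 12.3% at 28.6°C against 15.5, 20 and 25°C, 16.3% at 25°C against 15.5°C and 12.2% at 20°C against 15.5°C. The sum of the contigs had a log2 fold change of -3.13 (SE 0.085) at 28.6°C against 15.5°C, -2.39 (SE 0.087) at 28.6°C against 25°C, -0.14 (SE 0.075) at 25°C against 20°C and -0.60 (SE 0.072) at 20°C against 15.5°C. It was more than 4-fold lower in the same 3 comparisons, and 2.56%, 2.87% and 0.848% of all subcomponent sums were lower past both criteria at 28.6°C against 15.5, 20 and 25°C. At 28.6°C against 15.5°C, 28.1% of the sums were lower with no overlap.

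**Figure D2:**
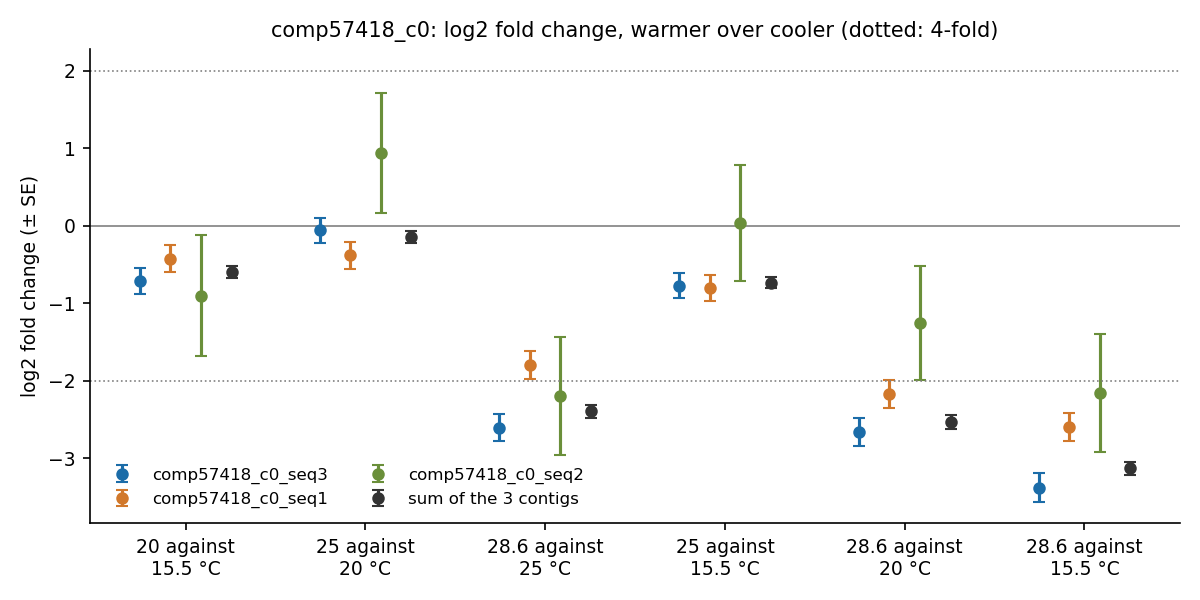
Log2 fold change ± SE of the 3 contigs and their sum in the 6 comparisons, the warmer temperature over the cooler one, from the fit over 20 libraries. Dotted lines mark a 4-fold difference. For comp57418_c0_seq3 the 3 comparisons with 28.6°C lie between -3.38 and -2.60, and the other 3 lie between -0.77 and -0.06.

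The takeout-named contig comp57418_c0_seq1 had a similar order of levels with smaller steps. It had 29.0, 29.3, 24.5, 26.2 and 33.4 CPM at 15.5°C, and 19.5, 19.1, 21.8, 25.9 and 20.2 CPM at 20°C. It had 14.4, 20.3, 16.5, 11.9 and 18.1 CPM at 25°C, and 5.72, 2.65, 5.25, 5.37 and 3.61 CPM at 28.6°C. Neighbouring temperatures overlapped up to 25°C, and the 28.6°C libraries stood apart below the rest. Its log2 fold change was -2.60 (SE 0.184) at 28.6°C against 15.5°C and -1.79 (SE 0.181) at 28.6°C against 25°C. It was more than 4-fold lower at 28.6°C against 15.5°C and against 20°C, at -2.60 and -2.17, but not against 25°C. In the fit to unique counts alone these values were -1.71 and -1.28, short of 4-fold. The ratios of mean unique CPM were -2.90 and -2.27 on the log2 scale, past 4-fold. Both rest on the few reads that map to this contig only, so its fold in unique reads depends on how it is computed.

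The third contig, comp57418_c0_seq2, had few reads and no stable level. Its values were 2.09, 2.57, 2.01, 3.75 and 2.21 CPM at 15.5°C, 3.40, 2.19, 0.481, 0 and 0 CPM at 20°C, 2.59, 0.144, 4.26, 3.49 and 2.46 CPM at 25°C, and 0.147, 0.120, 0.420, 0 and 1.20 CPM at 28.6°C. Libraries within 20°C and within 25°C ranged more widely than the means of the temperatures. The 0 CPM libraries had an estimated count that rounds to 0, which allows up to 3 counts, a level of up to 1.36 CPM in the shallowest of them. No library held more than 3 unique counts of this contig. Its log2 fold change at 28.6°C against 15.5°C was -2.15 (SE 0.759), and that at 28.6°C against 25°C was -2.19 (SE 0.763), with libraries that overlapped in the second comparison.

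Within the sum, comp57418_c0_seq3 took most of the reads at the cooler temperatures and less of them in some of the warmest libraries. Its mean share of the summed estimated counts was 69.4 ± 3.59%, 65.2 ± 6.07%, 68.6 ± 4.27% and 56.5 ± 12.3% at 15.5, 20, 25 and 28.6°C (SD, n = 5 each). At 28.6°C the shares were 62.5, 74.7, 48.7, 52.3 and 44.0%, so that 1 library held the highest share of all 20 and another the lowest. The 3 lowest of those came from libraries with 51.7, 46.0 and 29.1 estimated counts of this contig. The median ratio of FPKM, a value per length of contig, of comp57418_c0_seq3 over comp57418_c0_seq1 was 2.21, 1.77, 2.11 and 0.909 in the same order of temperatures. At 28.6°C it ranged from 0.850 to 2.52, and at 15.5°C from 1.63 to 2.54.

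Counted by unique reads alone, the picture of shares was different. Contig comp57418_c0_seq3 then held 97.0% to 98.0% of the reads at every temperature, as means of 5 libraries. Counted by every read that maps to a contig at all, it held 40.7% to 47.7%. At 28.6°C comp57418_c0_seq1 had 1, 0, 2, 1 and 1 unique counts in the 5 libraries, so the split between these contigs in the warmest larvae was made almost wholly by the division of shared reads. The part of that division in the shift of shares was not tested.

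**Figure D3:**
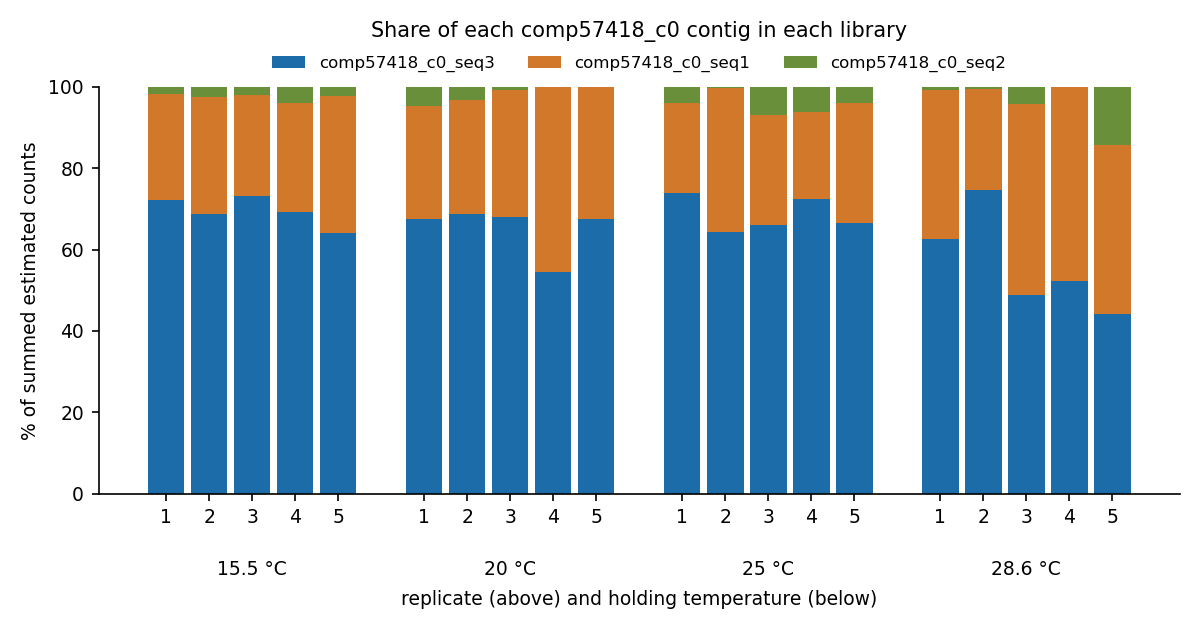
Percent of the summed estimated counts of comp57418_c0 given to each of its 3 contigs, in replicates 1 to 5 of each holding temperature. The share of comp57418_c0_seq3 lies between 44.0% and 74.7% at 28.6°C, against 64.0% to 73.1% at 15.5°C.

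The steps of comp57418_c0_seq3 were the same in reads that map nowhere else. Its unique counts were 633, 890, 468, 473 and 493 at 15.5°C, and 168, 284, 222, 62 and 339 at 20°C. At 25°C they were 315, 232, 304, 265 and 291, and at 28.6°C they were 58, 55, 39, 46 and 29. As unique CPM, on the same scaled totals, these made 57.4 ± 3.29, 34.7 ± 3.85, 33.7 ± 1.85 and 5.80 ± 1.91 (SD, n = 5 each). The lowest library, at 28.6°C, still held 29 reads of this contig alone.

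The deposited FPKM values of comp57418_c0_seq3 placed the 20°C group lower than its CPM did. Mean FPKM was 103.3 ± 6.60, 34.2 ± 19.8, 56.6 ± 5.79 and 7.81 ± 2.10 at 15.5, 20, 25 and 28.6°C (SD, n = 5 each). In the 20°C libraries it was 20.9, 47.5, 51.9, 6.01 and 44.8, and the low values belonged to replicates 1 and 4, the libraries with most comp65386_c0 reads. In those libraries the effective length by which eXpress divides the counts was 998.5 and 1046 bases for this contig, against 688.7 to 829.4 bases in the other 18 libraries. For comp57418_c0_seq1 it was 672.2 and 623.5 bases in those libraries, against 578.6 to 672.7 bases elsewhere. With FPKM rescaled to a common sum without comp65386_c0, the mean of comp57418_c0_seq3 at 20°C was 35.8 ± 12.0 (SD, n = 5), against 91.8 ± 6.96 at 15.5°C and 55.4 ± 4.95 at 25°C. In 20°C replicates 2, 3 and 5 the rescaled value was 45.3, 45.3 and 39.3, so the gap to 25°C did not lie in replicates 1 and 4 alone. The TMM factors, by which the total of a library is multiplied, were 0.798 to 0.907 at 20°C and 1.04 to 1.07 at 25°C. With totals not scaled by TMM, comp57418_c0_seq3 had a log2 fold change of 0.30 at 25°C against 20°C. Whether 20°C stood below 25°C or level with it was therefore a matter of scale, and CPM and FPKM differ on it. The part of TMM and of effective length in that difference was not tested.

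**Figure D4:**
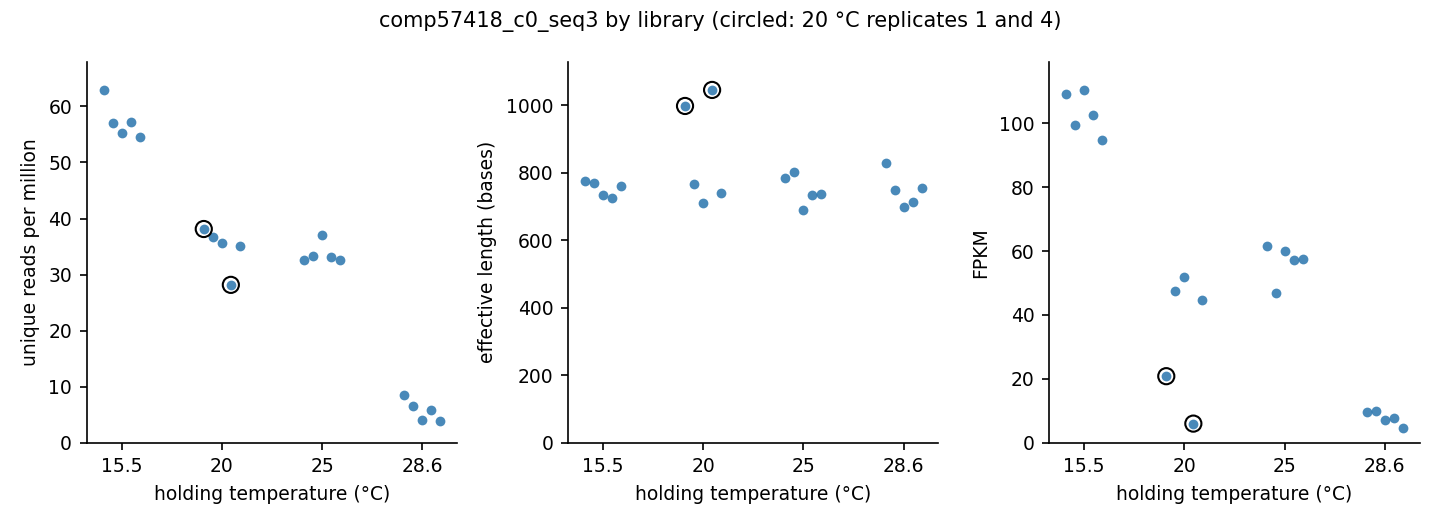
Unique CPM of comp57418_c0_seq3, its effective length in bases and its FPKM in each library against the holding temperature. Circles mark 20°C replicates 1 and 4, whose FPKM of 20.9 and 6.01 lay below the 44.8 to 51.9 of the other 20°C libraries while their effective lengths of 998.5 and 1046 bases lay above those of all other libraries.

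Against the study's 3 reference transcripts the order was kept except between 20 and 25°C. These are elongation 1B (comp51037_c0_seq1), troponin (comp62634_c1_seq14) and a contig with no annotation (comp60946_c5_seq1). The study picked its reference candidates for low relative variation of FPKM in this same experiment, so their steadiness here is not an independent result. No read of the troponin contig was unique. The count of comp57418_c0_seq3 over the geometric mean of their counts was 0.345 ± 0.019, 0.163 ± 0.015, 0.179 ± 0.016 and 0.0272 ± 0.0079 with increasing temperature (SD, n = 5 each). The references themselves had median log2 fold changes of 0.27 at 28.6°C against 15.5°C and 0.40 at 20°C against 15.5°C. On this scale the log2 difference of comp57418_c0_seq3 was -3.71 at 28.6°C against 15.5°C and -1.09 at 20°C against 15.5°C. The median over all retained contigs was 0.01 in both comparisons, but TMM scaling itself brings such medians near 0. With library size only it was -0.16 at 28.6°C and -0.42 at 20°C, each against 15.5°C.

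In mean FPKM among retained contigs, comp57418_c0_seq3 stood at percentile 95.9, 93.0, 93.7 and 68.4 from 15.5 to 28.6°C. It thus went with the more abundant transcripts of the thorax at all temperatures but the warmest. Contig comp57418_c0_seq1 stood at percentile 92.2, 89.0, 87.7 and 64.9. Contig comp57418_c0_seq2 stood at percentile 50.7, 31.4, 51.0 and 11.9.

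Within a temperature, the libraries of comp57418_c0_seq3 spread by a pooled SD of 0.297 on the log2 scale, and the median over 3521 contigs of similar level was 0.207. The sum of the contigs spread by 0.167, with a median of 0.100 over 2368 sums of similar level. Both differences at 28.6°C against 15.5°C were larger than these spreads. Libraries also fell into 2 sets by the longest read position in the authors' parameter files, 8 with a position of 188 and 12 with 99. The sources used here do not say what sets them apart. The set of 188 held 3, 1, 4 and 0 of the 5 libraries from 15.5 to 28.6°C. Among the libraries of 99, comp57418_c0_seq3 differed by -3.53 on the log2 scale between the 5 libraries at 28.6°C and the 2 at 15.5°C. The step of 25°C against 20°C was -0.26 among the libraries of 188 (4 against 1) and 0.23 among those of 99 (1 against 4), so its sign turned with the set.

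A further contig carried the same name. Contig comp64682_c2_seq6, of 1622 bases, also best matches O76879, with 21.0% identity, and all its reads were unique. It had 492.7, 472.7, 447.6, 445.9 and 445.8 CPM at 15.5°C, and 324.6, 318.6, 285.9, 245.3 and 282.6 CPM at 20°C. It had 370.5, 374.7, 341.6, 329.9 and 339.9 CPM at 25°C, and 120.6, 101.4, 82.2, 85.7 and 78.3 CPM at 28.6°C. It was therefore highest in the coolest larvae and lowest in the warmest, as comp57418_c0_seq3 was, but its 25°C libraries all stood above its 20°C libraries. Of all retained contigs, 9.15% were higher with no overlap at 25°C against 20°C. Its log2 fold change at 28.6°C against 15.5°C was -2.30, and the sum over the 6 contigs of its subcomponent gave -1.81. Both contigs of this name were more than 4-fold lower at 28.6°C against 15.5°C, while the sum for comp64682_c2 was short of 4-fold. Of all retained contigs, 4.77% were lower past both criteria. The list comes from the authors' table of transcripts called on these libraries and is not independent evidence of a direction.

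Contigs named takeout did not all follow the same course. Of the 5 in the table, 4 were lower and met both criteria at 28.6°C against 15.5°C, beside 4.77% of all retained contigs, and 2 of those 4 were comp57418_c0_seq1 and comp57418_c0_seq2. That table holds transcripts the authors had already called on these libraries, so the count is not independent evidence of a direction. The median log2 fold change of the 5 was -2.60, beside 0.01 over all retained contigs. That median is the value of comp57418_c0_seq1 itself, so it does not describe contigs outside comp57418_c0. Contig comp60571_c1_seq7 averaged 2.94 ± 1.39 CPM at 28.6°C and 72.5 ± 2.87 CPM at 15.5°C (SD, n = 5 each), a log2 fold change of -4.51. Only 6.90% of its reads were unique, and the sum over the 7 contigs of its subcomponent had a log2 fold change of -0.83. Contig comp60571_c1_seq4 averaged 1.58 ± 1.75 CPM at 28.6°C and 11.1 ± 2.88 CPM at 15.5°C (SD, n = 5 each), with 6.24% unique reads.

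The takeout-named contig comp56771_c0_seq1 went the other way. It is the only contig of its subcomponent and all its reads were unique. It had 32.6, 26.5, 23.9, 26.2 and 28.3 CPM at 28.6°C, against 9.94, 10.4, 10.5, 8.95 and 11.6 CPM at 15.5°C, with no overlap. Of all retained contigs, 19.2% were likewise higher with no overlap in this comparison. Its level at 20°C, 3.99 ± 0.465 CPM (SD, n = 5), was the lowest of the 4 temperatures. Its log2 fold change of 1.40 at 28.6°C against 15.5°C did not reach 4-fold, and that at 28.6°C against 20°C was 2.73. Of the contigs named takeout, 4 thus stood lower and 1 higher in the warmest larvae than in the coolest. The 4 are not separate transcripts by these data, as they lie in comp57418_c0 and comp60571_c1 and few of their reads were unique. The sum of comp60571_c1 was lower by only -0.83 on the log2 scale.

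**Figure D5:**
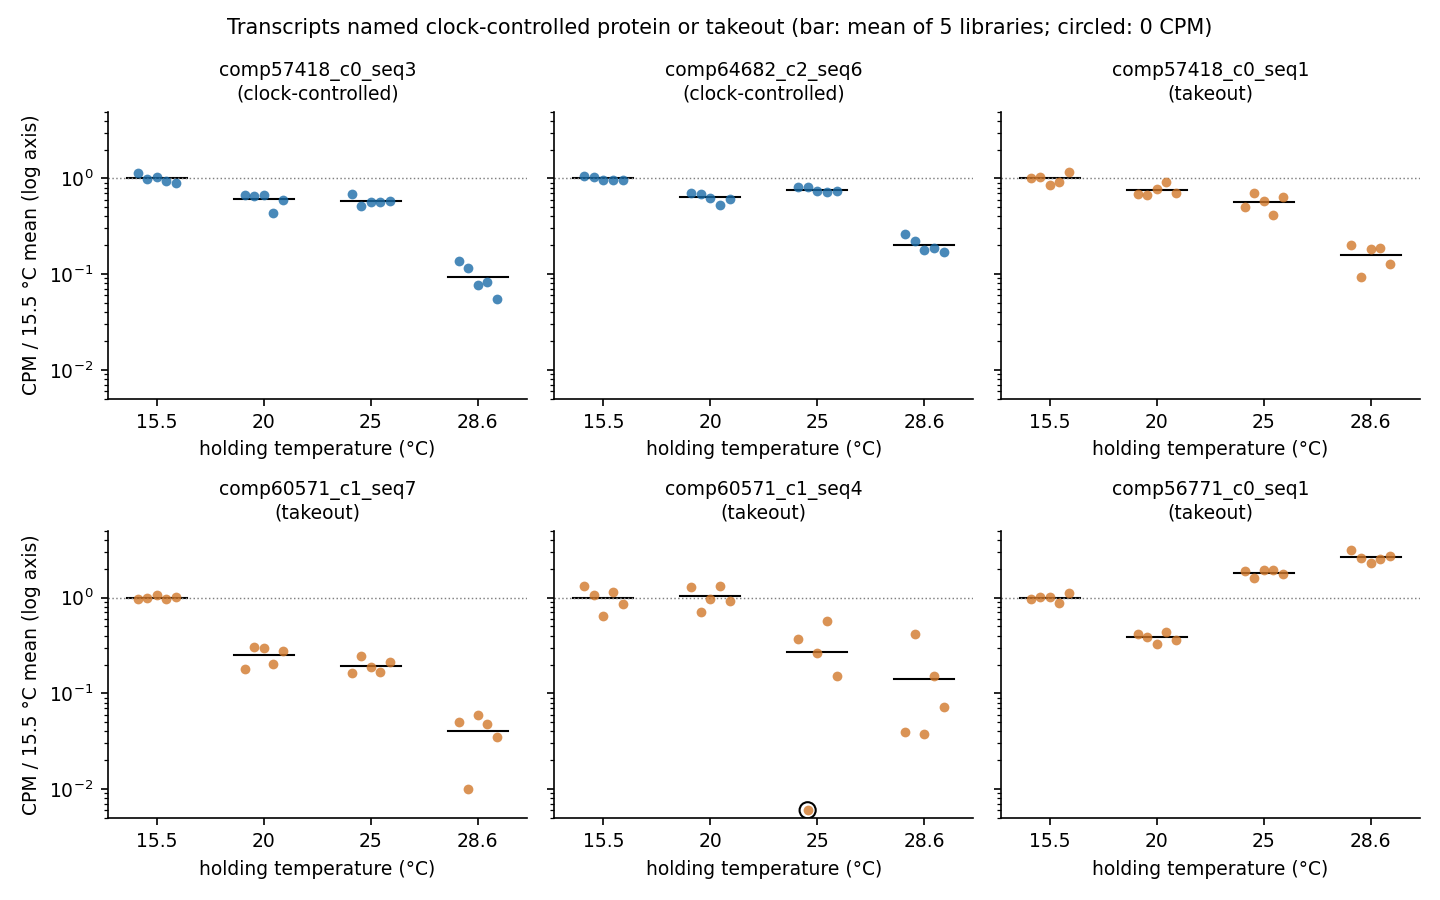
CPM of 6 transcripts named circadian clock-controlled protein (top left and top middle) or Protein takeout, in each library over the mean of the 15.5°C libraries, on a log axis against the holding temperature. Black bars are means of 5 libraries, and the circled point at the lower edge is a library at 0 CPM. Contigs comp57418_c0_seq3 and comp64682_c2_seq6 are lowest at 28.6°C, while comp56771_c0_seq1 is highest there.

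Other transcripts with names tied to daily rhythm were few and mixed. Of 13 such contigs in the authors' table, the 2 clock-controlled ones included, 11 were retained, 3 were lower and 4 were higher past both criteria at 28.6°C against 15.5°C, with a median log2 fold change of 1.47. Among all retained contigs 4.77% were lower and 6.66% were higher past both criteria. Of the 3 lower ones, 2 were the clock-controlled contigs themselves, and this list too comes from transcripts already called on these libraries. Nocturnin, an enzyme whose transcript follows the day in vertebrates, had 5 contigs of 1 subcomponent, of which comp56814_c0_seq2 averaged 11.1 CPM at 28.6°C and 0.61 CPM at 15.5°C. Contig comp56814_c0_seq1 of the same subcomponent averaged 5.64 CPM at 28.6°C and 0.80 CPM at 15.5°C. Only 14.4% of the reads of comp56814_c0_seq2 and 5.04% of those of comp56814_c0_seq1 were unique. The nocturnin contig with the most counts, comp56814_c0_seq3, had a log2 fold change of 1.88 in this comparison, short of 4-fold, and was highest at 25°C. Contigs comp56814_c0_seq4 and comp56814_c0_seq5 had 0.20 and 0.51, with libraries that overlapped. The receptor of pigment-dispersing factor, the peptide by which clock neurons of *Drosophila* signal to each other, had 4 contigs, and comp58668_c1_seq5 averaged 20.8 CPM at 28.6°C and 2.41 CPM at 15.5°C. Contig comp58668_c1_seq2 of this receptor averaged 10.9 CPM at 28.6°C and 1.99 CPM at 15.5°C, and neither had a unique read. Dopamine N-acetyltransferase, which acetylates dopamine and related amines in insects, had a contig (comp62790_c5_seq2) that averaged 3.51 CPM at 28.6°C and 19.3 CPM at 15.5°C. The other contig of its subcomponent, comp62790_c5_seq1, averaged 5.44 CPM at 28.6°C and 1.81 CPM at 15.5°C, with a log2 fold change of 1.47 and libraries that overlapped. Only 10.4% of the reads of comp62790_c5_seq2 and 17.5% of those of comp62790_c5_seq1 were unique, so their levels rest on how shared reads were divided. The search words for core clock genes, period and timeless among them, matched no contig of that table.

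Likeness to comp57418_c0_seq3 was measured as Pearson's r of log2 CPM over the 20 libraries, as a description over libraries that share their pools. Of the 30410 retained contigs outside comp57418_c0, 313 had r above 0.9 (1.03%). Within comp57418_c0, comp57418_c0_seq1 had r = 0.93. The contigs named next are at most 1 per subcomponent. The highest was comp56513_c0_seq4, which has no annotation, with r = 0.988, but only 1.76% of its reads were unique. The second was comp64682_c2_seq6, the other contig of the same protein name, also with r = 0.988. It was followed by comp64628_c0_seq5 (0.984), which had no unique read, comp59924_c0_seq2 (0.980) and comp56143_c0_seq1 (0.979). The last has no annotation, and that of comp64628_c0_seq5 and comp59924_c0_seq2 is not known here, as the authors' table does not list them. With Spearman's rho, or over the 4 temperature means, none of these 5 stayed among the first 5, and without 20°C replicates 1 and 4 there were 4 of them.

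The most opposite patterns were those of comp60057_c4_seq1 (r = -0.971), comp56769_c0_seq1 (r = -0.970) and comp60449_c0_seq4 (r = -0.969). The last is named mitochondrial translocator assembly and maintenance protein 41, a protein of cardiolipin synthesis in mitochondria, and averaged 21.3 ± 1.76 CPM at 28.6°C and 4.74 ± 0.449 CPM at 15.5°C (SD, n = 5 each). The heat shock protein transcript hsp23 (comp54992_c0_seq1), a small chaperone, averaged 64.9 ± 1.21, 192.8 ± 13.3, 448.9 ± 25.8 and 1911 ± 73.1 CPM from 15.5 to 28.6°C (SD, n = 5 each). It was thus higher at each warmer temperature, where comp57418_c0_seq3 was lower or level. The study took hsp23 and comp60449_c0_seq4 as targets expected to rise with heat, on this same experiment. Their course opposite to comp57418_c0_seq3 is therefore not an independent result.

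Thorax tissue holds more than muscle, and in pooled tissue fewer cells of a type cannot be told apart from less RNA per cell. Markers were taken by name from the authors' table, with troponin of the references among those of muscle, and their CPM was summed in each library. The 7 muscle contigs summed to 1226 to 1567 CPM at 28.6°C, against 1225 to 1546 CPM at 15.5°C. That sum was made mostly by the reference troponin (comp62634_c1_seq14), which averaged 1368 CPM at 28.6°C and 1133 CPM at 15.5°C. The study picked its references for low variation in this same experiment, so the level sum is not evidence about muscle. No read of this troponin contig was unique. Of the 7, 4 were lower and 3 were higher, 3 of the lower ones past both criteria, with a median log2 fold change of -1.25. The troponin I contig comp63275_c0_seq6 averaged 19.0 CPM at 28.6°C and 115.5 CPM at 15.5°C, with 2.91% unique reads. The 5 phenoloxidase contigs, enzymes of blood cells, summed to 82.1 to 105.4 CPM at 28.6°C, against 409.2 to 435.7 CPM at 15.5°C, and all 5 were lower, 3 of them past both criteria. The 53 digestive enzyme contigs of the gut summed to 3163 to 3474 CPM at 28.6°C, against 10406 to 11160 CPM at 15.5°C. Of the 49 retained gut contigs 45 were lower, 30 of them past both criteria, and 4 were higher, none of them past both criteria. The share of all retained contigs lower past both criteria was 4.77%, and the gut, fat body and blood cell lists and all muscle contigs but the reference were drawn from transcripts already called on these libraries.

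The 6 fat body contigs, which encode storage and lipid transport proteins of the blood, summed to 3963 to 5429 CPM at 28.6°C, against 8214 to 8724 CPM at 15.5°C. Most of that sum was larval serum protein 1 beta chain (comp56711_c0_seq1), which averaged 4412 CPM at 28.6°C and 6406 CPM at 15.5°C. Of the 6, 4 were lower, 3 of them past both criteria, and 2 were higher, hexamerin-1.1 (comp64679_c1_seq5) by 1.80 on the log2 scale and vitellogenin (comp52536_c0_seq1) by 0.62 with libraries that overlapped. At 20°C they summed to 32454 to 40812 CPM and the gut contigs to 17525 to 22166 CPM, in both lists the highest of the 4 temperatures, where comp57418_c0 was at its middle level. The summed fat body, gut and blood cell markers, though not every contig in them, were thus lower at 28.6°C than at 15.5°C along with comp57418_c0, and their part in its level was not tested. No fat body, blood cell or muscle contig was at 0 throughout a temperature, and 1 gut contig was at 0 at 15.5°C and 1 at 28.6°C. The 9 retained contigs with juvenile hormone or ecdysone in their names were all basic juvenile hormone-suppressible protein 2, a storage protein of moths, and most of them belong to subcomponents of the fat body list. Of these, 4 were lower past both criteria at 28.6°C against 15.5°C and none was higher past both criteria, beside 4.77% lower among all retained contigs. At 25°C against 20°C all 9 were lower past both criteria, beside 1.73% of all, a step at which comp57418_c0_seq3 was level. These too come from transcripts already called on these libraries.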

How the data were processed

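RNA-seq libraries of larval thorax, 5 at each of 15.5, 20, 25 and 28.6°C, were analysed from the files of the authors. Per the methods and processing notes, the authors trimmed reads with Trim Galore 0.3.0, joined pairs that overlapped, made their own assembly of the reads, mapped with Bowtie2 2.0.6 and counted with eXpress 1.5.1. The deposited files give, for each contig, the count of all reads and of unique reads as whole numbers. They also hold the estimated count of eXpress, made by the authors' run, and an effective count that allows for bias. The FPKM column is from the same eXpress run of the authors. The authors deposited a table of transcripts called with edgeR 1.2.4 as centred log2 values, which equal log2(FPKM + 1) less its mean per transcript over the 18 columns that could be matched to a replicate. Only its contig names and annotation were used, and no column was left unread.

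Estimated counts were rounded, the 10 contigs of comp65386_c0 were removed, and contigs that reached 2 CPM in 4 or more of 20 libraries were retained. TMM scaling and a quasi-likelihood fit with 1 term for each temperature were run in edgeR 4.0.16 under R 4.3.3, with a prior count of 2 and Benjamini-Hochberg adjustment over all retained contigs. The same fit was run on counts summed per subcomponent. The SE was found by dividing the log2 fold change by the root of its F. Mean ± SD, percentiles and Pearson's r were computed in Python 3.11.15. The fit was tested on simulated data for 28.6°C against 15.5°C with 30413 transcripts. An adjusted p below 0.05 was reached by 76% of 2-fold and 100% of 8-fold changes. Both criteria were met by 0% of the 2-fold and 100% of the 8-fold changes. The changed transcripts were drawn from the more abundant ones, so these shares do not cover contigs as low as comp57418_c0_seq2.

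The contigs, the lists and the alternatives were chosen with earlier results of these data known. The text names every contig of comp57418_c0, the 5 most and 3 least alike contigs, contigs named clock-controlled or takeout, contigs of the rhythm list called at 28.6°C against 15.5°C with some others of their subcomponents, the 3 references and hsp23. Alternatives were another normalization, filter, kind of count, tool (DESeq2 1.42.0), prior count, set of libraries, block and covariate, and each library left out. Scaling to the 3 references was added after the data had been seen. Intervals and floors cover counting error only. NanoString counts of field populations and the reads are not analysed here.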

Additional observations from a re-analysis of the deposited data

Results flagged for a closer look

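In 7 of 60 groups of 5 libraries, 1 library lay far from the other 4 by Dixon's criterion, which chance meets in about 5% of groups. The groups are not independent, since the shares and the sum are made of the same counts as the contigs. Nothing is therefore read from the number of groups flagged. In 20°C replicate 4, the library with the fewest reads outside comp65386_c0, comp57418_c0_seq3 took 54.4% of the summed estimated counts, against 67.4% to 68.7% in the other 20°C libraries. In the same library comp57418_c0_seq1 took 45.6%, against 27.9% to 32.5% in the others. The unique reads of comp57418_c0_seq3 were highest in 25°C replicate 3, at 37.0 unique CPM against at most 33.3 in the other 25°C libraries, and those of the sum were 38.0 there, against at most 34.2. The sum stood at 109.1 CPM in 15.5°C replicate 1, with 99.0 CPM in the next library. For comp57418_c0_seq2, 20°C replicate 1 had 0.454 and 28.6°C replicate 5 had 0.134 unique CPM, which are 2 reads and 1 read.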

How the results depend on the processing

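For comp57418_c0_seq3 and the sum, the log2 fold changes of the 3 comparisons with 28.6°C and of 20°C and 25°C against 15.5°C were negative under every alternative run. Fold changes that moved by more than the spread within temperatures were as follows, and the cause was not tested. With library size only, 20°C against 15.5°C was -1.19 for comp57418_c0_seq3 and -1.10 for the sum, 25°C against 20°C was 0.30 and 0.24 for them, 28.6°C against 15.5°C was -3.30 for the sum and 28.6°C against 20°C was -2.20 for it. Scaled to the 3 references, 20°C against 15.5°C was -1.09 for comp57418_c0_seq3 and -0.99 for the sum, 25°C against 20°C was 0.053 and 25°C against 15.5°C was -0.94 for the sum, and 28.6°C against 15.5°C was -3.71 and -3.39 for them. With effective counts the sum had -0.82 at 20°C against 15.5°C and 0.051 at 25°C against 20°C. With unique counts the sum had -2.57 at 28.6°C against 25°C and -3.31 at 28.6°C against 15.5°C. The sign at 25°C against 20°C thus depends on the scaling. For comp57418_c0_seq1, 25°C against 20°C turned to 0.12 with unique counts, of which this contig had 105 in all. In the fit to these counts it was -1.71 in place of -2.60 at 28.6°C against 15.5°C, -1.28 in place of -2.17 at 28.6°C against 20°C, -1.40 at 28.6°C against 25°C and -0.30 at 25°C against 15.5°C, all short of 4-fold. In the same order, the log2 ratios of its mean unique CPM were -2.90, -2.27, -2.56 and -0.34. The comparisons with 28.6°C were thus past 4-fold by that measure. The same contig had -0.88 at 20°C against 15.5°C and -0.027 at 25°C against 20°C with library size only, and -0.77 at 20°C against 15.5°C and -2.92 at 28.6°C against 15.5°C scaled to the references. Without each library in turn, comp57418_c0_seq3 ranged from -3.54 to -3.24 at 28.6°C against 15.5°C, from -2.77 to -2.47 against 25°C, from -0.76 to -0.63 at 20°C against 15.5°C, and from -0.15 to -0.02 at 25°C against 20°C.

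The count of contigs past both criteria at 28.6°C against 15.5°C was 3477, and it was 504 with at least 2 CPM in all libraries, 1460 with unique counts and 1615 with total counts. In the same order of settings, the counts of the other comparisons were 131, 436 and 294 in place of 1107 at 20°C against 15.5°C, 87, 343 and 267 in place of 987 at 25°C against 20°C, 188, 595 and 588 in place of 1518 at 28.6°C against 25°C, 230, 587 and 560 in place of 1712 at 25°C against 15.5°C, and 481, 1211 and 1528 in place of 2998 at 28.6°C against 20°C. Contig comp57418_c0_seq2 gave no value with unique counts, with at least 2 CPM in all libraries or scaled to the references.

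Replicate numbers did not pair the libraries: over 30 pairs of the same number the correlation of deviations was -0.02 to 0.05, and 7 of 20 libraries correlated best with their own number. With the replicate number as a block, comp57418_c0_seq3 was -3.40 at 28.6°C against 15.5°C and the sum was -3.13. The libraries hold pools of the same larvae, so no alternative bears on variation among animals. Depth limits comp57418_c0_seq2, with 22 unique reads in all, and the split between contigs at 28.6°C.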
